A study of Ambystoma mexicanum with 12 samples.

Results

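HOX genes of the axolotl spinal cord were described across 4 groups of injured and uninjured cords. Every gene symbol made of HOX, a cluster letter and a paralog number was taken as a member, which gave 37 of the 15091 genes measured. Of these, 11 belonged to HOXA, 9 to HOXB, 9 to HOXC and 8 to HOXD. By paralog number, 7 members were paralogs 1 to 3, 7 were paralogs 4 and 5 (HOXA4, HOXB4, HOXC4, HOXD4, HOXA5, HOXB5 and HOXC5), 8 were paralogs 6 to 8 and 15 were paralogs 9 to 13. HOXB1 and HOXD12 were not analysed here. Symbols are those of the best human protein match of axolotl contigs, and contigs that share a best match were merged, so a contig that holds little more than a homeobox can carry the symbol of a neighbouring paralog.

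HOX genes encode homeodomain transcription factors that tell cells where along the head to tail axis they lie. They sit in 4 clusters (HOXA, HOXB, HOXC and HOXD), and within a cluster the genes are numbered by paralog. Genes with low paralog numbers are switched on from the hindbrain backwards and genes with high numbers from progressively more posterior levels, so that the set of HOX genes a cord segment expresses differs along its length. In the mouse and chick, middle paralogs mark limb and trunk levels of the cord, and the last ones mark its tail end. HOX proteins bind DNA together with TALE homeodomain cofactors of the PBX and MEIS families, and in motor neurons they set columnar and pool identity.

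RNA was sequenced from spinal cords of axolotls (Ambystoma mexicanum), a salamander that regrows a cut cord, at a body length of 2 to 3 cm. There were 12 libraries in 4 groups of 3, and each library pooled tissue of 10 animals. Body length, pool size and delivery by injection are given here as in the sample labels, and the study's methods section gives another length and pool size and names electroporation. In 4 dpi miR-200a inhibitor cords, an inhibitor of the microRNA miR-200a was injected into the central canal, a piece of cord was removed, and the injured area was collected 4 days post injury (dpi). In uninjured miR-200a inhibitor cords the inhibitor was given without the injury. In 4 dpi control inhibitor cords, a control inhibitor was injected before the same injury. Uninjured cords had no injury, and the labels do not say whether these animals were injected. Which body level each cord came from, and how long after injection the uninjured miR-200a inhibitor cords were taken, is not given in the sources used here. Libraries are named by replicate number: 5, 6 and 7 in both miR-200a inhibitor groups, 1, 5 and 6 in 4 dpi control inhibitor, and 1, 2 and 5 in uninjured cords, where the number 2 stands for a library with no number in its label. Triplets of values follow this order. The titles of uninjured replicates 1 and 5 carry the tag Cntl, and the title of uninjured replicate 2 does not. The labels do not say that replicates came from separate injection sessions, so p-values measure only the spread between these pools.

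The data are transcript shares (TPM), a level corrected for transcript length that sums to 1000000 in every library, so read depth is unknown and 12 libraries limit the precision. Differences were tested with limma on log2(TPM + 0.1) across the 13824 genes that averaged 1 TPM or more, and a call is an adjusted p under 0.05. The typical gene itself moved: the all-gene median was -0.81 (log2) in 4 dpi miR-200a inhibitor against uninjured cords, -1.10 in uninjured miR-200a inhibitor against uninjured cords, -0.69 in 4 dpi miR-200a inhibitor against 4 dpi control inhibitor cords, 0.28 in 4 dpi miR-200a inhibitor against uninjured miR-200a inhibitor cords and -0.08 in 4 dpi control inhibitor against uninjured cords. HOX values are therefore also given after median-of-ratios scaling, which brings these medians to between -0.17 and 0.01. The 13 neuronal and 10 ependymoglial markers were all measured and none was at 0 throughout a group, while the forebrain and midbrain factors OTX1 and OTX2 were at or near 0 in most libraries. Uninjured replicate 1 stood apart: it had the highest level of 32 of the 37 HOX genes among the 12 libraries, and its neuronal markers summed to 14440 TPM, against 1374 to 5944 TPM in the other libraries.

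All 4 clusters were expressed. Paralogs 9 to 13 held 58.7% to 70.5% of HOX TPM across the 12 libraries, and paralogs 10 to 13, without the trunk paralog 9, held 37.7% to 53.9%. Averaged over the 12 libraries, 4 members reached 50 TPM, 11 lay from 10 to 50 TPM, 21 from 1 to 10 TPM and 1 was under 1 TPM. HOXB9, a marker of trunk levels, led with 16.2% of all HOX TPM, followed by HOXC12 with 15.2%, HOXC13 with 13.1% and HOXB8 with 9.81%. Of the 37 members, 31 were above 0 in every library. HOXA6 was listed at 0 in 10 libraries and had 5.54 and 1.5 TPM in uninjured replicates 1 and 2. It did not pass the filter, so 36 members were tested.

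**Figure D1:**
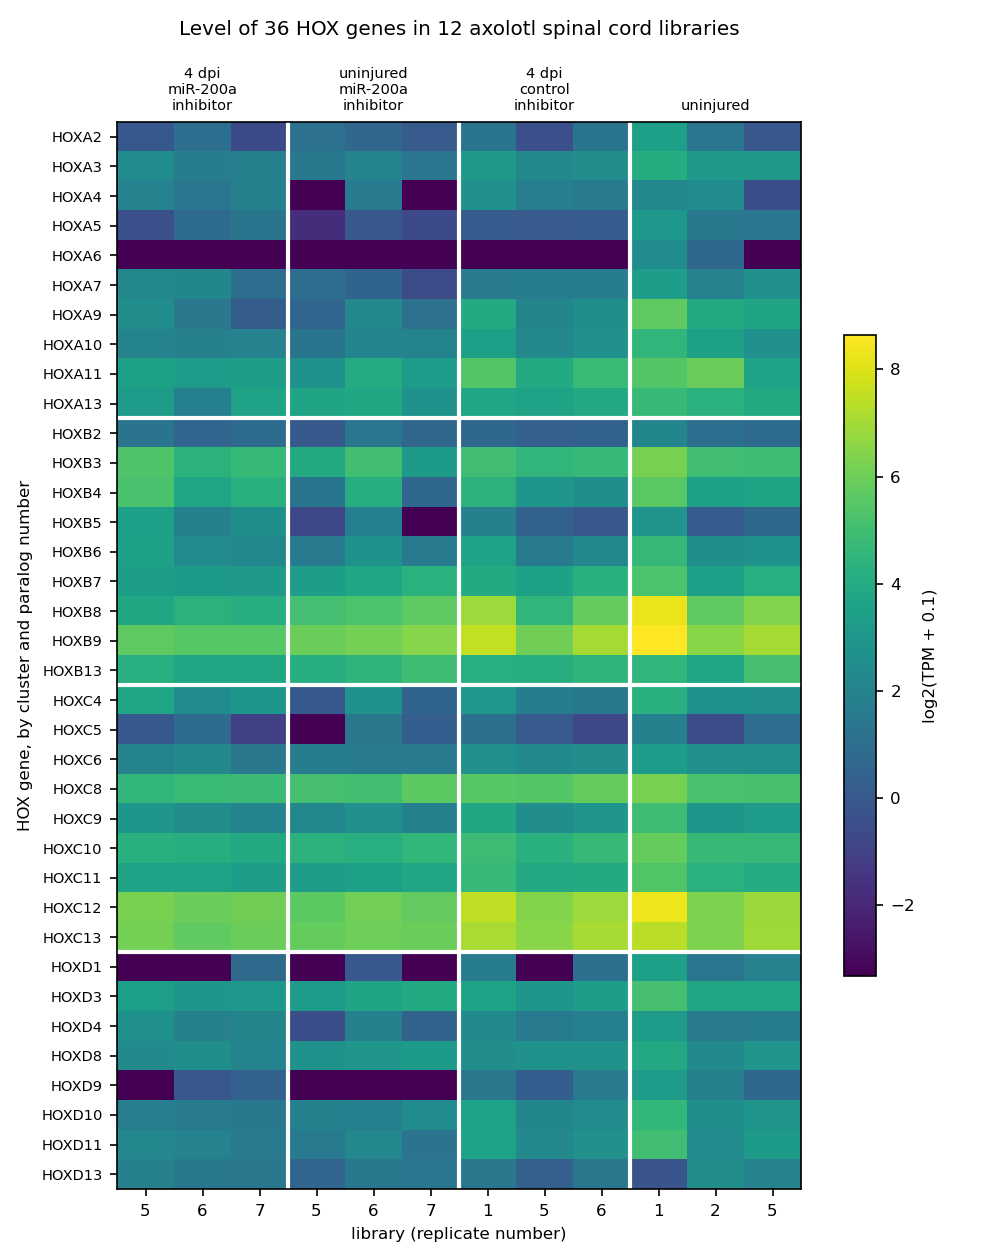
Level of 36 HOX genes (rows, by cluster and paralog number) in the 12 libraries (columns, by group and replicate number), as log2(TPM + 0.1). HOXB8, HOXB9, HOXC12 and HOXC13 are the brightest rows, uninjured replicate 1 is the brightest column, and paralogs 4 and 5 are dark in uninjured miR-200a inhibitor replicates 5 and 7.

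In deposited TPM, HOX transcript as a whole was lowest in both miR-200a inhibitor groups, an order that did not hold after scaling. Summed over the 37 members, it came to 502, 382 and 406 TPM in 4 dpi miR-200a inhibitor, 381, 506 and 485 in uninjured miR-200a inhibitor, 1032, 499 and 747 in 4 dpi control inhibitor and 2008, 668 and 773 in uninjured cords. Both miR-200a inhibitor groups lay below all 3 libraries of the uninjured group, while each overlapped the other and 4 dpi control inhibitor replicate 5. On the log2 scale the group mean in 4 dpi miR-200a inhibitor was -1.25 relative to uninjured cords and -0.77 relative to 4 dpi control inhibitor. After scaling, these were -0.57 and -0.13, and for uninjured miR-200a inhibitor against uninjured cords -1.16 became -0.21. For 4 dpi control inhibitor against uninjured cords -0.48 became -0.44. The scaled sums were 569, 644 and 736 in uninjured miR-200a inhibitor and 609, 455 and 608 in 4 dpi control inhibitor, so the former was no longer the lower of these groups. Without uninjured replicate 1, the deposited values gave -0.75 for 4 dpi miR-200a inhibitor and -0.66 for uninjured miR-200a inhibitor against uninjured cords. In these bulk libraries, fewer HOX-expressing cells and less HOX RNA per cell cannot be told apart.

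Neuronal transcripts also differed between groups. The 13 neuronal markers summed to 1457, 1651 and 1374 TPM in 4 dpi miR-200a inhibitor, 2492, 2777 and 3547 in uninjured miR-200a inhibitor, 5944, 2796 and 3652 in 4 dpi control inhibitor and 14440, 2541 and 4882 in uninjured cords. Per neuronal marker TPM, HOX transcript was 0.345, 0.231 and 0.295 in 4 dpi miR-200a inhibitor, 0.153, 0.182 and 0.137 in uninjured miR-200a inhibitor, 0.174, 0.179 and 0.205 in 4 dpi control inhibitor and 0.139, 0.263 and 0.158 in uninjured cords. Both miR-200a inhibitor groups had HOX sums in the same range, while their neuronal sums did not overlap. On the ratio of both sums 4 dpi miR-200a inhibitor cords were not the lowest group but the highest, with uninjured replicate 2 inside their range. Other tissue was present too: 13 skeletal muscle markers summed to 6173 to 6691 TPM in 4 dpi miR-200a inhibitor, 3393 to 8829 in uninjured miR-200a inhibitor, 10134 to 17362 in 4 dpi control inhibitor and 9490 to 41386 in uninjured cords. The 8 leukocyte markers summed to 1975 to 2302 TPM in 4 dpi miR-200a inhibitor, 767 to 907 in uninjured miR-200a inhibitor, 1094 to 1222 in 4 dpi control inhibitor and 141 to 168 in uninjured cords, and none of these markers was at 0 throughout a group. Their part in the HOX values was not tested.

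The balance between paralogs differed between groups, and it does not depend on how libraries are scaled. Paralogs 4 and 5, which lie towards the anterior end of the clusters, held 14.6%, 8.47% and 10.8% of HOX TPM in 4 dpi miR-200a inhibitor, against 1.2%, 7.52% and 1.2% in uninjured miR-200a inhibitor, 4.53%, 4.05% and 2.38% in 4 dpi control inhibitor and 5.03%, 4.61% and 3.72% in uninjured cords. All 3 libraries of 4 dpi miR-200a inhibitor lay above every other library in this share, but not in the deposited TPM summed over these paralogs. That sum was 73.1, 32.3 and 43.8 in 4 dpi miR-200a inhibitor and 4.58, 38 and 5.8 in uninjured miR-200a inhibitor. It was 46.8, 20.2 and 17.8 in 4 dpi control inhibitor and 101, 30.8 and 28.8 in uninjured cords. Paralogs 9 to 13, the posterior class, held 58.7%, 61.6% and 61.9% in 4 dpi miR-200a inhibitor, against 65.5%, 61.6% and 63.9% in uninjured miR-200a inhibitor, 68.9%, 69.1% and 70.5% in 4 dpi control inhibitor and 62.1%, 66.8% and 67.2% in uninjured cords. The 4 dpi control inhibitor libraries had the highest posterior shares and did not overlap any other group, and the 4 dpi miR-200a inhibitor libraries overlapped only uninjured miR-200a inhibitor. These shares are descriptions without a test, and paralogs 4 and 5 were singled out after the values had been seen.

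Leaving out paralog 9 changed the posterior differences. With paralogs 10 to 13 in place of 9 to 13, the share in 4 dpi miR-200a inhibitor was 3.23 percentage points lower than in 4 dpi control inhibitor, where it had been 8.75 points lower. Against uninjured cords it turned from 4.61 points lower to 2.96 points higher, and against uninjured miR-200a inhibitor from 2.93 points lower to 1.76 points higher. HOXB9 was 2.63, 2.61 and 2.94 times HOXC10 in 4 dpi miR-200a inhibitor, against 2.95, 3.83 and 3.66 times in uninjured miR-200a inhibitor, 6.46, 3.43 and 4.96 times in 4 dpi control inhibitor and 7.02, 3.47 and 5.35 times in uninjured cords. On this ratio 4 dpi miR-200a inhibitor lay below the other groups, by a narrow margin from uninjured miR-200a inhibitor. HOXB8 was 0.585, 0.77 and 0.617 times HOXC8 in 4 dpi miR-200a inhibitor, 0.971, 1.17 and 1.04 times in uninjured miR-200a inhibitor, 2.59, 0.543 and 1.01 times in 4 dpi control inhibitor and 4.25, 1.46 and 2.3 times in uninjured cords. This second ratio put 4 dpi miR-200a inhibitor below both uninjured groups, while 4 dpi control inhibitor replicate 5 was lower still. For HOXC12 and HOXC13, neighbours at the posterior end, HOXC12 was 0.873 to 1.93 times HOXC13 across the 12 libraries, highest in uninjured replicate 1.

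**Figure D2:**
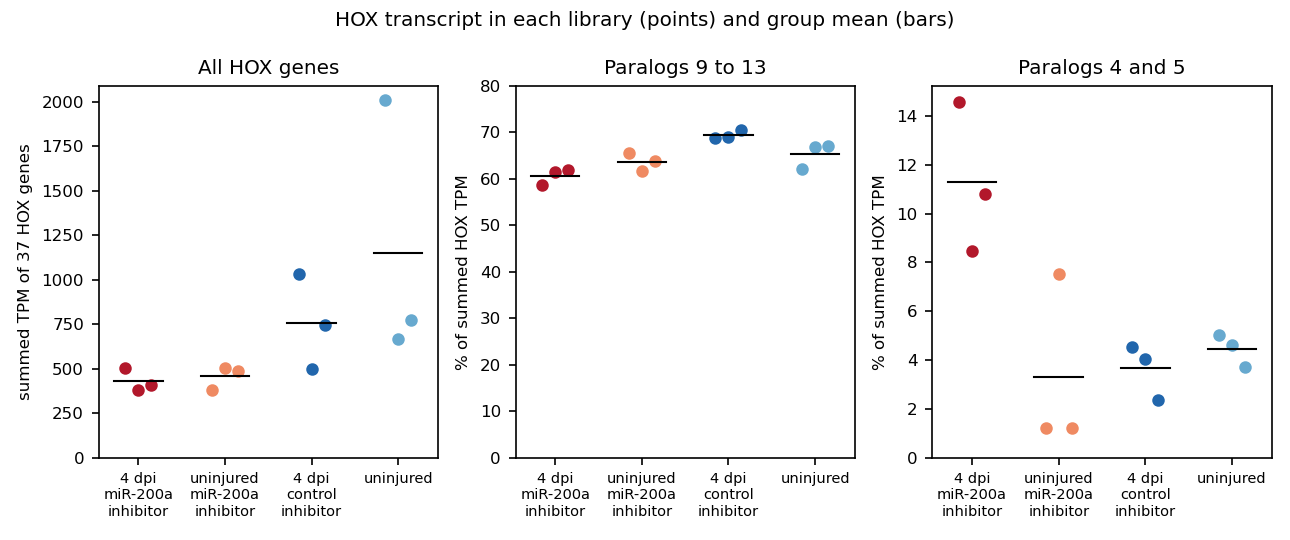
Summed TPM of the 37 HOX genes (left) and the percent of that sum held by paralogs 9 to 13 (middle) and by paralogs 4 and 5 (right). Points are libraries in replicate order and bars are group means; for paralogs 4 and 5 the 3 libraries of 4 dpi miR-200a inhibitor, at 8.47% to 14.6%, lie above the other 9 libraries.

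HOXB4, expressed from the caudal hindbrain backwards in the mouse, was the most abundant of paralogs 4 and 5, with 37.2, 13.6 and 19 TPM in 4 dpi miR-200a inhibitor, 2.39, 17.5 and 1.53 in uninjured miR-200a inhibitor, 20.1, 7.57 and 6.19 in 4 dpi control inhibitor and 48.2, 11.4 and 12.8 in uninjured cords. HOXC4 had 13.4, 5.52 and 7.98 TPM in 4 dpi miR-200a inhibitor, 0.877, 7 and 1.36 in uninjured miR-200a inhibitor, 8.21, 3.22 and 2.78 in 4 dpi control inhibitor and 19.1, 6.69 and 6.21 in uninjured cords. HOXB5 had 10.7, 3.67 and 6.15 TPM in 4 dpi miR-200a inhibitor, 0.495, 3.52 and 0 in uninjured miR-200a inhibitor, 3.6, 1.2 and 0.835 in 4 dpi control inhibitor and 7.5, 1.01 and 1.56 in uninjured cords. In uninjured miR-200a inhibitor all 3 genes were low in replicates 5 and 7 and high in replicate 6, which reached the range of the 4 dpi miR-200a inhibitor libraries for HOXB4 and HOXC4. HOXA4 had 3.9, 2.5 and 3.57 TPM in 4 dpi miR-200a inhibitor, 0, 2.94 and 0 in uninjured miR-200a inhibitor, 6.58, 3.34 and 2.99 in 4 dpi control inhibitor and 4.48, 5.45 and 0.622 in uninjured cords. HOXD4 had 6.37, 3.62 and 4.3 TPM in 4 dpi miR-200a inhibitor, 0.624, 3.72 and 1.28 in uninjured miR-200a inhibitor, 5.18, 2.97 and 3.47 in 4 dpi control inhibitor and 9.69, 2.92 and 3.23 in uninjured cords. HOXA5 had 0.657, 1.69 and 2.41 TPM in 4 dpi miR-200a inhibitor, 0.199, 0.85 and 0.544 in uninjured miR-200a inhibitor, 1.02, 0.965 and 1.01 in 4 dpi control inhibitor and 8.3, 2.76 and 2.52 in uninjured cords, and HOXC5 ranged from 0 to 3.78 TPM. All 7 members of paralogs 4 and 5 were highest in replicate 6 among the uninjured miR-200a inhibitor libraries. That library also had more genes above 0 (14268 of 15091) than replicate 5 (13921) and replicate 7 (13692). Its sum of 7 oligodendrocyte markers was higher (2372 TPM, against 1303 and 706 TPM). So were its sums of skeletal muscle (8829, against 3393 and 5664), connective tissue (3165, against 2705 and 1620), notochord and cartilage (415, against 338 and 207) and red cell markers (455, against 311 and 281). It was not the highest of its group for neuronal, ependymoglial, skin or leukocyte markers. The part of these tissues in the HOX values was not tested.

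**Figure D3:**
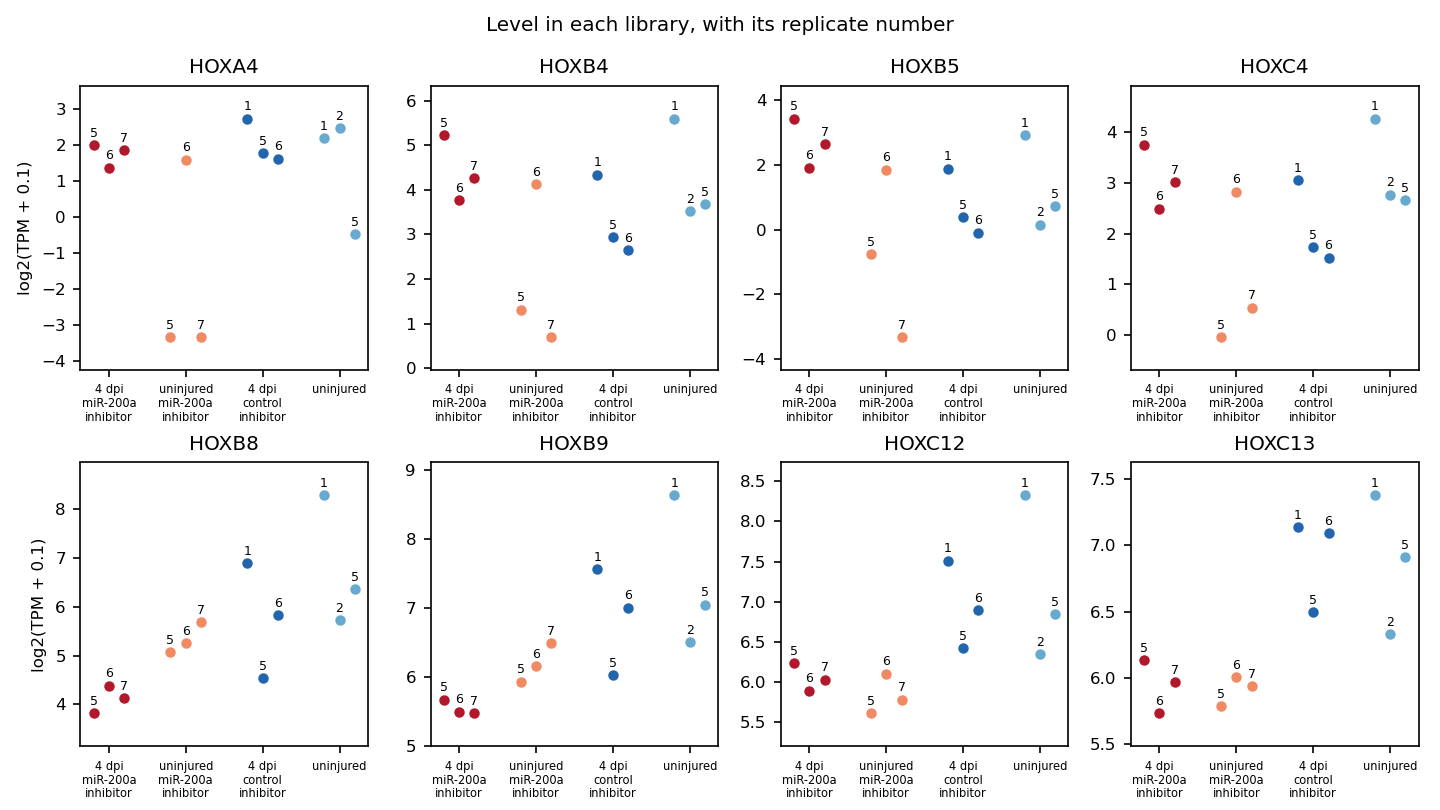
Level, as log2(TPM + 0.1), of HOXA4, HOXB4, HOXB5 and HOXC4 (top row) and HOXB8, HOXB9, HOXC12 and HOXC13 (bottom row) in each library, labelled with its replicate number. In the top row uninjured miR-200a inhibitor replicates 5 and 7 lie below the 4 dpi miR-200a inhibitor libraries and replicate 6 lies near them; in the bottom row the 4 dpi miR-200a inhibitor libraries lie below the 3 libraries of the uninjured group.

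With the inhibitor and injury together, members of paralogs 1 to 3, 6 to 8 and 9 to 13 had lower deposited TPM than in uninjured cords. No member of paralogs 4 and 5 was called. Of the 36 members tested, 18 (50%) fell and none rose in 4 dpi miR-200a inhibitor, where 31.2% of all genes tested were lower and 9.39% higher. Among paralogs 9 to 13, 11 of 15 fell, with a median log2 fold change of -1.41. Among paralogs 1 to 3, 4 of 7 fell, HOXA3, HOXD1 and HOXD3 among them, and among paralogs 6 to 8, 3 of 7 fell (HOXC6, HOXB8 and HOXC8). None of the 7 members of paralogs 4 and 5 was called, their median was 0.04 and 4 of them were above 0; the difference between classes was not tested. After scaling, 3 members fell and none rose, against 12% of all genes lower and 16.6% higher. Of these, 1 was of paralogs 6 to 8 and 2 were of paralogs 9 to 13, so no call was kept among paralogs 1 to 3.

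HOXB8, a trunk paralog, had 13.9, 20.8 and 17.3 TPM in 4 dpi miR-200a inhibitor, 33.4, 38 and 51.6 in uninjured miR-200a inhibitor, 119, 23.2 and 56.9 in 4 dpi control inhibitor and 313, 52.9 and 82.3 in uninjured cords. The 4 dpi miR-200a inhibitor libraries all lay below the other groups' libraries, with log2 fold change -2.69 ± 0.62 (SE, adjusted p = 0.00738) against uninjured cords. HOXB9 had 50.7, 44.9 and 44.1 TPM in 4 dpi miR-200a inhibitor, 60.8, 70.9 and 89.3 in uninjured miR-200a inhibitor, 188, 64.9 and 128 in 4 dpi control inhibitor and 397, 90.2 and 132 in uninjured cords. Here too the 4 dpi miR-200a inhibitor libraries were the lowest 3 of the 12, with log2 fold change -1.85 ± 0.48 (SE, adjusted p = 0.0117) against uninjured cords. HOXA9, of the same paralog group, had 5.7, 2.56 and 1.04 TPM in 4 dpi miR-200a inhibitor, 1.38, 4.79 and 2.2 in uninjured miR-200a inhibitor, 15.5, 4.18 and 6.12 in 4 dpi control inhibitor and 53, 15.4 and 12.6 in uninjured cords. HOXA9 and HOXA10 share sequence with a HOXA10-HOXA9 readthrough row that is no member, so the levels of both are uncertain. The miR-200a inhibitor groups of HOXA9 overlapped each other and lay below uninjured cords, with log2 fold change -3.07 ± 0.72 (SE, adjusted p = 0.00793) for 4 dpi miR-200a inhibitor. These 3 members were the ones still called after scaling (adjusted p = 0.0111 for HOXB8, 0.0324 for HOXB9 and 0.0128 for HOXA9) and when any 1 of the 12 libraries was left out.

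The HOXC genes had smaller differences. HOXC13, the last gene of its cluster, had 70.1, 53.1 and 62.5 TPM in 4 dpi miR-200a inhibitor, 55.2, 64.2 and 61.1 in uninjured miR-200a inhibitor, 140.4, 90.1 and 136 in 4 dpi control inhibitor and 166, 80.2 and 120.3 in uninjured cords, with log2 fold change -0.93 ± 0.27 (SE, adjusted p = 0.0188) in 4 dpi miR-200a inhibitor against uninjured cords. HOXC12 had 75.1, 59.4 and 65.3 TPM in 4 dpi miR-200a inhibitor, 48.7, 68.8 and 54.9 in uninjured miR-200a inhibitor, 182, 85.4 and 119 in 4 dpi control inhibitor and 320.5, 81.2 and 115 in uninjured cords, and its fold change of -1.12 ± 0.42 (log2, SE) missed the threshold at adjusted p = 0.0508. Both genes separated 4 dpi miR-200a inhibitor from uninjured cords without overlap, as 22 of the 36 members tested did in the downward direction. The share of all genes that separated in this comparison is not given here. HOXC10, a gene of lumbar motor columns in the mouse, had 19.2, 17.2 and 15 TPM in 4 dpi miR-200a inhibitor, 20.6, 18.5 and 24.4 in uninjured miR-200a inhibitor, 29.2, 18.9 and 25.9 in 4 dpi control inhibitor and 56.6, 26 and 24.7 in uninjured cords, with log2 fold change -0.95 ± 0.32 (SE, adjusted p = 0.0321). HOXC8 had 23.8, 27 and 28.1 TPM in 4 dpi miR-200a inhibitor, 34.4, 32.6 and 49.4 in uninjured miR-200a inhibitor, 45.9, 42.6 and 56.2 in 4 dpi control inhibitor and 73.7, 36.3 and 35.8 in uninjured cords, with log2 fold change -0.80 ± 0.29 (SE, adjusted p = 0.0447). After scaling, the log2 differences of HOXC13, HOXC12, HOXC10 and HOXC8 were -0.25, -0.44, -0.28 and -0.12, and none was called. In the other clusters HOXA10, HOXA11 and HOXA13 gave log2 fold changes of -1.64, -1.60 and -1.41, and HOXD10 and HOXD11 of -1.71 and -1.58, all called lower.

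The count rested on single libraries. Leaving out uninjured replicate 1 left 3 calls, and leaving out 4 dpi miR-200a inhibitor replicate 5, 6 or 7 left 7, 7 and 6. Without both libraries numbered 1 there were 7 calls. Shares of all genes called in these fits are not given here.

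**Figure D4:**
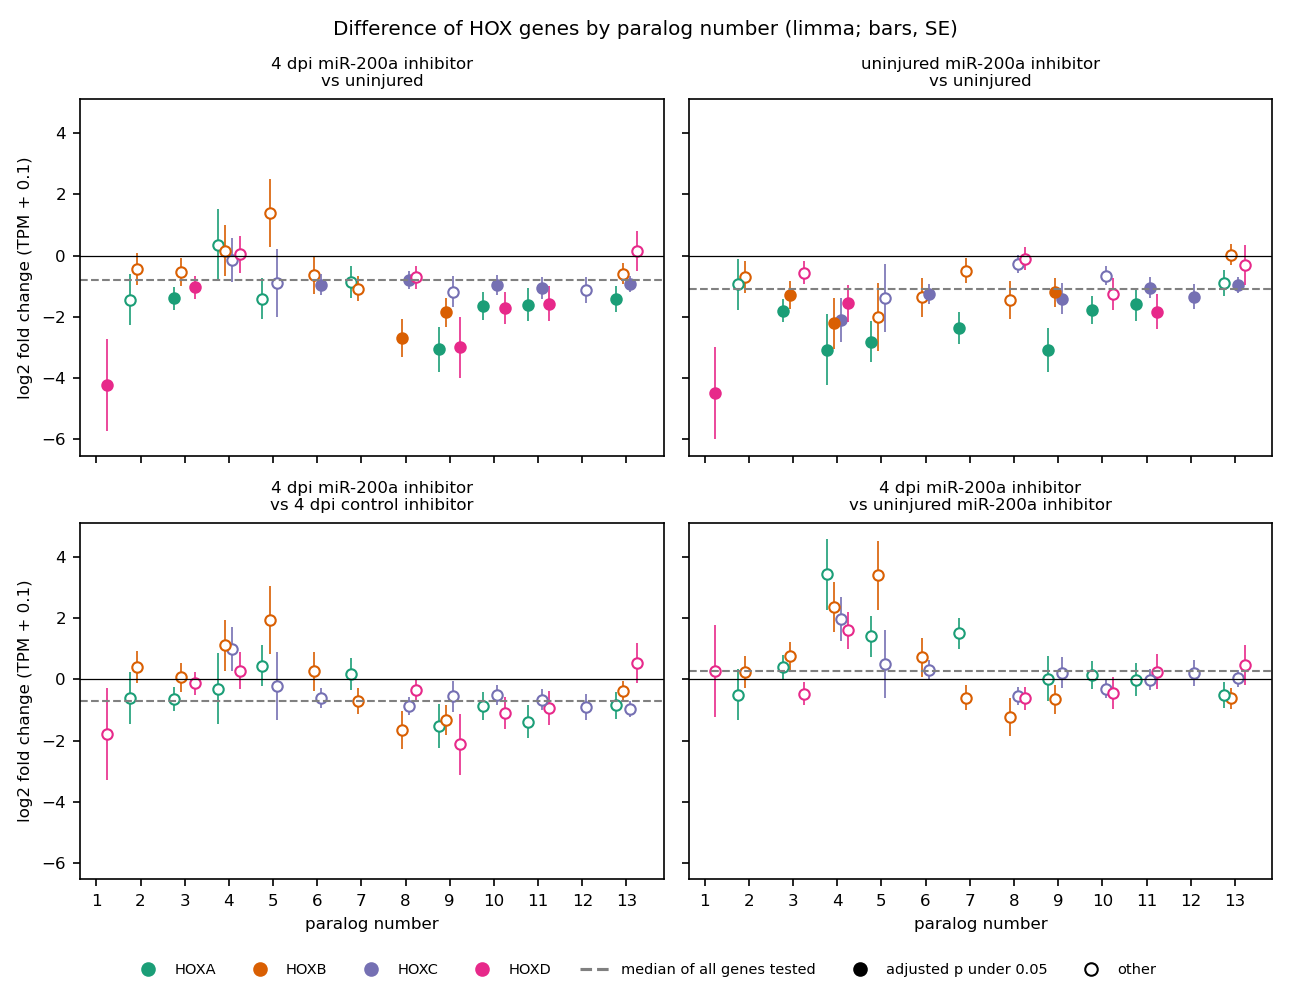
Log2 fold change of tested HOX genes (vertical axis, with SE) against paralog number (horizontal axis), coloured by cluster, in 4 comparisons; filled points passed an adjusted p under 0.05 and the dashed line is the median of all genes tested. In 4 dpi miR-200a inhibitor against uninjured cords the points of paralogs 4 and 5 lie above most others, with a median of 0.04 against -1.41 for paralogs 9 to 13; HOXD9, at 0 in every uninjured miR-200a inhibitor library, is left out of the panels with that group.

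Without injury, members of every paralog class were lower in the miR-200a inhibitor cords. Of the 36 members, 21 (58.3%) were lower and none higher in uninjured miR-200a inhibitor than in uninjured cords, close to the 51.1% of all genes that were lower, while 7.39% of all genes were higher. By class, 4 of 7 paralogs 1 to 3, 5 of 7 paralogs 4 and 5, 2 of 7 paralogs 6 to 8 and 10 of 15 paralogs 9 to 13 fell. By cluster, 8 of 10 HOXA members fell, with 3 of 9 in HOXB, 6 of 9 in HOXC and 4 of 8 in HOXD. The HOX median was -1.37, or -1.36 without HOXD9, which was listed at 0 in all 3 uninjured miR-200a inhibitor libraries and so has no fold change. After scaling the median was -0.45, or -0.43 without HOXD9, 5 members were lower and 1 was higher, against 17.8% of all genes lower and 19.4% higher.

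The members that kept the call after scaling were HOXD9 and 4 genes of the HOXA cluster. HOXA5 had the values given above, with log2 fold change -2.81 ± 0.67 (SE, adjusted p = 0.00529) against uninjured cords. HOXA7 had 4.86, 4.34 and 1.9 TPM in 4 dpi miR-200a inhibitor, 1.89, 1.34 and 0.574 in uninjured miR-200a inhibitor, 2.84, 3.13 and 3.19 in 4 dpi control inhibitor and 10, 3.88 and 6.47 in uninjured cords, with log2 fold change -2.37 ± 0.52 (SE, adjusted p = 0.0039). HOXA3, which acts in hindbrain and pharyngeal patterning, had 5.58, 3.24 and 3.61 TPM in 4 dpi miR-200a inhibitor, 2.73, 4.15 and 2.46 in uninjured miR-200a inhibitor, 8.64, 4.81 and 5.98 in 4 dpi control inhibitor and 16.8, 8.82 and 8.5 in uninjured cords, with log2 fold change -1.80 ± 0.39 (SE, adjusted p = 0.00368). In all 3 genes each uninjured miR-200a inhibitor library lay below each uninjured library, as in 18 of the 36 members tested. The share of all genes that separated in this comparison is not given here. HOXA9 gave log2 fold change -3.10 ± 0.72 (SE, adjusted p = 0.00492) in the same comparison. HOXD9 had 0, 0.838 and 1.22 TPM in 4 dpi miR-200a inhibitor, 0, 0 and 0 in uninjured miR-200a inhibitor, 2.63, 1.07 and 3.05 in 4 dpi control inhibitor and 9.79, 3.71 and 1.54 in uninjured cords, so it was above 0 in every library without the miR-200a inhibitor and at 0 in all 3 uninjured libraries given it. After scaling, the adjusted p of HOXA3, HOXA5, HOXA7, HOXA9 and HOXD9 was 0.0332, 0.0223, 0.0271, 0.0171 and 0.00404. With 0 in all 3 uninjured miR-200a inhibitor libraries, the p of HOXD9 depends on the pseudocount and reflects no spread within that group.

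The other calls were lost after scaling. HOXA10, HOXC6 and HOXC13 passed with every single library left out, as did the 5 members above. HOXD1, a gene of the anterior end, had 0, 0 and 1.64 TPM in 4 dpi miR-200a inhibitor, 0, 0.866 and 0 in uninjured miR-200a inhibitor, 3.13, 0 and 2.06 in 4 dpi control inhibitor and 10.8, 2.5 and 3.85 in uninjured cords, and its value of 0 in 5 libraries makes its fitted change depend on the pseudocount. HOXD8, by contrast, had 5, 6.2 and 4.06 TPM in 4 dpi miR-200a inhibitor, 6.95, 7.32 and 9.16 in uninjured miR-200a inhibitor, 5.9, 6.72 and 6.69 in 4 dpi control inhibitor and 14.9, 5.18 and 7.39 in uninjured cords. Its log2 difference in uninjured miR-200a inhibitor was -0.10 with deposited TPM and 0.84 after scaling (adjusted p = 0.0442), which made it the 1 member called higher. HOXB13, the posterior end of its cluster, had 18, 13.3 and 13.5 TPM in 4 dpi miR-200a inhibitor, 17.6, 21.9 and 30.6 in uninjured miR-200a inhibitor, 18.5, 17.2 and 22.6 in 4 dpi control inhibitor and 23.6, 13.6 and 34.7 in uninjured cords, with a difference of 0.03 ± 0.34 (log2, SE). Leaving out uninjured replicate 1 left 8 calls, and leaving out uninjured miR-200a inhibitor replicate 5 or 7 left 10 and 11. Leaving out both libraries numbered 1 left 11. Shares of all genes called in these fits are not given here.

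Among injured cords, no HOX gene was called between 4 dpi miR-200a inhibitor and 4 dpi control inhibitor by limma, where 3.19% of all genes were lower and 0.629% higher (after scaling, 0 genes of either kind). At an unadjusted p under 0.05, 5 members were lower (HOXA11, HOXB8, HOXB9, HOXC8 and HOXC13) and none higher, against 30% of all genes lower and 4.2% higher. After scaling, 4 members were higher at that threshold (HOXB2, HOXB4, HOXB5 and HOXC4) and none lower, against 12.8% and 5.68% of all genes. With library weights in the fit 20 members were called lower and 3 higher, against 57.3% and 8.33% of all genes. HOXC13 came nearest, with log2 fold change -0.96 ± 0.27 (SE, adjusted p = 0.0575). The HOX median of -0.61 was close to the all-gene median of -0.69. In 13 members every 4 dpi miR-200a inhibitor library was lower than every 4 dpi control inhibitor library, and in 1, HOXB5, every one was higher, where 49% and 6.97% of all genes separated in these directions.

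On this contrast only paralogs 4 and 5 had a positive median. It was 0.45, against -0.89 for paralogs 9 to 13 and -0.61 for both paralogs 1 to 3 and paralogs 6 to 8. After scaling these medians were 1.03, -0.25, -0.003 and 0.02 in the same order, with all 7 members of paralogs 4 and 5 above 0. The difference between classes was not tested here. HOXB5 had log2 fold change 1.94 ± 1.12 (SE, adjusted p = 0.223), HOXB4 log2 fold change 1.11 ± 0.83 (SE, adjusted p = 0.327) and HOXC4 log2 fold change 0.98 ± 0.72 (SE, adjusted p = 0.317), none of which passed. Leaving out 1 library gave calls in 3 cases, all lower in 4 dpi miR-200a inhibitor. There were 5 without uninjured replicate 1, 3 without 4 dpi control inhibitor replicate 5 and 1 without uninjured replicate 2. Shares of all genes called in these fits are not given here.

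Within cords given the miR-200a inhibitor, injured against uninjured, no HOX gene was called by limma, where 0.579% of all genes were higher and 0.0434% lower (after scaling, 107 and 67 genes). At an unadjusted p under 0.05, 7 members were higher (HOXA4, HOXB4, HOXC4, HOXD4, HOXB5, HOXA7 and HOXD9) and none lower, against 17.4% of all genes higher and 3.37% lower, so the share of higher members is near the background. HOXD9 was at 0 in every uninjured miR-200a inhibitor library, so its p depends on the pseudocount. After scaling, the same threshold gave 7 higher and 8 lower members, against 12.3% and 9.73% of all genes. With library weights 9 members were called higher and 3 lower, against 33.4% and 11% of all genes. All 7 members of paralogs 4 and 5 were above 0, with a median of 1.97, against 0.03 for paralogs 9 to 13, a difference that was not tested. Paralogs 1 to 3 had a median of 0.25 and paralogs 6 to 8 of -0.54. HOXB5 had log2 fold change 3.40 ± 1.12 (SE, adjusted p = 0.138), HOXB4 log2 fold change 2.37 ± 0.83 (SE, adjusted p = 0.155) and HOXC4 log2 fold change 1.97 ± 0.72 (SE, adjusted p = 0.164). Of the 12 fits that leave out 1 library, 1 gave calls. It left out uninjured miR-200a inhibitor replicate 6, the library of its group that was highest for paralogs 4 and 5, and in it the 4 paralog 4 genes and HOXB5 were called higher, with adjusted p = 0.00961 for HOXA4, 0.0165 for HOXB4, 0.0194 for HOXB5, 0.0216 for HOXC4 and 0.0374 for HOXD4. The share of all genes called in that fit is not given here, so these calls are not shown to be particular to paralogs 4 and 5. For HOXB5 the adjusted p over the 12 fits reached 0.539, and for HOXB4 0.565.

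In 2 members (HOXB5 and HOXA7) every 4 dpi miR-200a inhibitor library was higher than every uninjured miR-200a inhibitor library, and in 6 (HOXB7, HOXB8, HOXB9, HOXC8, HOXD8 and HOXD10) every one was lower, where 29.6% and 9.51% of all genes separated in these directions. HOXB7 had 10.4, 8.91 and 8.53 TPM in 4 dpi miR-200a inhibitor, 10.5, 13 and 20.1 in uninjured miR-200a inhibitor, 15.9, 11.2 and 19.2 in 4 dpi control inhibitor and 37.9, 10.7 and 18.7 in uninjured cords. The 6 members that separated downwards were trunk and posterior paralogs, with HOXB8 at a log2 difference of -1.23 ± 0.62 (SE, adjusted p = 0.281).

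Injury with the control inhibitor moved no single HOX gene past the test, although most lay on one side. Compared with uninjured cords, 0 of 36 members were called by limma in 4 dpi control inhibitor, where 0.861% of all genes were higher and 0.0434% lower. At an unadjusted p under 0.05, 2 members were lower (HOXA5 and HOXD3) and none higher, against 2.82% of all genes lower and 7.38% higher. Library weights gave 0 calls among members, against 2.65% of all genes lower and 6.97% higher. The HOX median was -0.63, against -0.08 over all genes, and 33 of 36 members were below 0 (also after scaling, with a median of -0.59). Without uninjured replicate 1 the HOX median was -0.16, and without both libraries numbered 1 it was -0.38. HOXA5 had log2 fold change -1.86 ± 0.67 (SE, adjusted p = 0.327). HOXD3, the most abundant HOXD gene, had 10.7, 8.01 and 8.11 TPM in 4 dpi miR-200a inhibitor, 9.78, 12.6 and 15.2 in uninjured miR-200a inhibitor, 12.1, 7.69 and 9.83 in 4 dpi control inhibitor and 34.1, 13.1 and 13.5 in uninjured cords, with log2 fold change -0.90 ± 0.37 (SE, adjusted p = 0.423). In 5 members (HOXA5, HOXA7, HOXA13, HOXB2 and HOXD3) every 4 dpi control inhibitor library lay below every uninjured library and in none did every one lie above, where 1.88% and 7.85% of all genes separated in these directions. The 3 comparisons with uninjured cords share the same 3 uninjured libraries.

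HOXC13 and HOXC8 differed least in 4 dpi control inhibitor against uninjured cords: HOXC13 gave log2 fold change 0.03 ± 0.27 (SE, adjusted p = 0.969) and HOXC8 log2 fold change 0.07 ± 0.29 (SE, adjusted p = 0.944). HOXA11, which in the mouse patterns the middle limb segment and is the most abundant HOXA gene here, had 10.9, 9.34 and 10.3 TPM in 4 dpi miR-200a inhibitor, 7.05, 16.2 and 9.32 in uninjured miR-200a inhibitor, 43.8, 15.8 and 26.8 in 4 dpi control inhibitor and 42.8, 59.5 and 11.7 in uninjured cords, and its log2 difference was -0.23 ± 0.55 (SE). Uninjured replicate 2 held the highest HOXA11 of all 12 libraries and uninjured replicate 5 a level within the miR-200a inhibitor range. HOXA cluster transcripts made up 20.8% of HOX TPM in uninjured replicate 2.

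Whether the injury difference of a HOX gene depended on the inhibitor was tested as an interaction. No member passed (limma), where 0.0434% of all genes were called in either direction. At an unadjusted p under 0.05, 6 members had a positive interaction (HOXB4, HOXC4, HOXA5, HOXB5, HOXA7 and HOXD9) and none a negative one, against 6.58% of all genes positive and 1.59% negative. Since HOXD9 was at 0 in every uninjured miR-200a inhibitor library, its interaction depends on the pseudocount. With library weights 5 members were called positive and 1 negative, against 12.7% and 3.94% of all genes. All 7 members of paralogs 4 and 5 were positive, with a median of 3.10 on the log2 scale, against 0.39 for paralogs 9 to 13 and 0.31 over all genes. Paralogs 1 to 3 had a median of 1.11 and paralogs 6 to 8 of -0.19. The median over the HOX members tested was 0.88, and 0.41 without uninjured replicate 1. HOXB4 had an interaction of 3.32 ± 1.17 (SE, adjusted p = 0.587).

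Paralogs 1 to 3 held 6.45% to 12.2% of HOX TPM across the 12 libraries. HOXB3, which marks the caudal hindbrain and cord in the mouse, was the most abundant anterior gene, with 40.4, 20.3 and 25.8 TPM in 4 dpi miR-200a inhibitor, 15.1, 32 and 9.01 in uninjured miR-200a inhibitor, 30.9, 23.2 and 25.8 in 4 dpi control inhibitor and 72.2, 30.9 and 29.2 in uninjured cords. Uninjured miR-200a inhibitor replicate 6 was again the highest of its group. HOXA2 ranged from 0.54 to 10.6 TPM, HOXB2 from 0.908 to 4.36 TPM, HOXB6 from 2.9 to 25.1 TPM and HOXC6 from 2.67 to 9.57 TPM across the 12 libraries. Among posterior members not given above, HOXA10 ranged from 2.37 to 23.5 TPM, HOXA13 from 3.43 to 25.3 TPM, HOXC9 from 3.69 to 30.3 TPM, HOXC11 from 10.3 to 42.2 TPM, HOXD10 from 2.78 to 23.9 TPM and HOXD11 from 2.21 to 30.9 TPM. HOXD13 ranged from 0.78 to 5.91 TPM and, unlike most members, was lowest in uninjured replicate 1.

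Some TALE cofactors of HOX proteins fell in the miR-200a inhibitor groups. Of 6 TALE cofactors tested, 3 fell in 4 dpi miR-200a inhibitor and 4 fell in uninjured miR-200a inhibitor against uninjured cords, none rose, and 31.2% and 51.1% of all genes were lower in these comparisons. After scaling 2 and 3 cofactors were called lower, against 12% and 17.8% of all genes. MEIS1 had 7.31, 7.25 and 6.33 TPM in 4 dpi miR-200a inhibitor, 8.01, 8.04 and 9.4 in uninjured miR-200a inhibitor, 23.3, 9.41 and 14 in 4 dpi control inhibitor and 61.8, 24.9 and 17.2 in uninjured cords, with log2 fold change -2.08 ± 0.43 (SE, adjusted p = 0.00477) for 4 dpi miR-200a inhibitor. MEIS2 had 2, 2.2 and 2 TPM in 4 dpi miR-200a inhibitor, 2.57, 3.39 and 3.16 in uninjured miR-200a inhibitor, 7.63, 2.98 and 3.9 in 4 dpi control inhibitor and 20.6, 8.51 and 5.69 in uninjured cords, with log2 fold change -2.22 ± 0.48 (SE, adjusted p = 0.00542). Both genes were lower in all 6 miR-200a inhibitor libraries than in all 3 uninjured libraries. How many of all genes separated in this way is not given here. Of 10 motor neuron genes, 7 fell in 4 dpi miR-200a inhibitor and 9 in uninjured miR-200a inhibitor, and of 14 dorsoventral cord factors 9 and 10 fell, beside the same shares of all genes. After scaling, 6 motor neuron genes and 6 dorsoventral factors were called lower in 4 dpi miR-200a inhibitor, and 4 of each in uninjured miR-200a inhibitor.

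Among 19 tested regulators of HOX expression, 2 rose and 6 fell in 4 dpi miR-200a inhibitor, and 12 fell in uninjured miR-200a inhibitor, against uninjured cords. In 4 dpi miR-200a inhibitor these counts are near the shares of all genes, of which 9.39% were higher and 31.2% lower, and in uninjured miR-200a inhibitor 51.1% of all genes were lower. After scaling, 3 were higher and 2 lower in 4 dpi miR-200a inhibitor, against 16.6% and 12% of all genes. In uninjured miR-200a inhibitor 2 were higher and 5 lower after scaling, against 19.4% and 17.8% of all genes. ALDH1A2, which makes retinoic acid, had 6.13, 4.13 and 4.59 TPM in 4 dpi miR-200a inhibitor, 19.1, 13.3 and 18.4 in uninjured miR-200a inhibitor, 39.3, 15.4 and 23.2 in 4 dpi control inhibitor and 83.2, 20 and 42.6 in uninjured cords. Its 4 dpi miR-200a inhibitor libraries lay below all other libraries, with log2 fold change -3.06 ± 0.47 (SE, adjusted p = 0.00166) against uninjured cords and log2 fold change -2.28 ± 0.47 (SE, adjusted p = 0.0434) against 4 dpi control inhibitor, where it was the 1 regulator called and the call was lost after scaling (adjusted p = 0.0966). WDR5 and EED, subunits of activating and repressive chromatin complexes, were the 2 that rose in 4 dpi miR-200a inhibitor, by 0.88 and 0.75 on the log2 scale (adjusted p = 0.00596 and 0.0225). KMT2A, a methyltransferase that maintains HOX expression, had 3.36, 1.91 and 2.93 TPM in 4 dpi miR-200a inhibitor, 0.457, 1.58 and 0.145 in uninjured miR-200a inhibitor, 7.45, 4.07 and 3.54 in 4 dpi control inhibitor and 10.9, 5.92 and 4.61 in uninjured cords, with log2 fold change -3.47 ± 0.64 (SE, adjusted p = 0.00217) for uninjured miR-200a inhibitor.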

How the data were processed

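Whole-tissue spinal cord RNA of 12 pooled libraries was analysed. The authors estimated transcript levels with RSEM 1.1.6 and Bowtie 0.12.1 (the submitters' processing notes also name DESeq2 1.16.1) on contigs named by their best human match, and the deposited values are TPM, which sum to 1000000 per library. Counts and depth are therefore unknown. Symbols that a spreadsheet had turned into dates were restored for 25 genes, none a HOX gene. Of the 37 HOX symbols, 36 were also symbols of RefSeq axolotl genes. No sequences were compared, so this match does not settle which paralog a row holds.

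Groups came from the sample titles. limma 3.58.1 (R 4.3.3) was fitted to log2(TPM + 0.1) of all 12 libraries with 1 term per group, a variance trend and 8 residual degrees of freedom; p-values were adjusted by Benjamini-Hochberg over 13824 genes that averaged 1 TPM or more, which left out 1267. The script was tested on simulated data. Results of 1 member and 1 marker are not reported here and the member is not drawn in the plots of single genes, but both count in sums, lists and tests; values per library were given for abundant members, called members and those of extreme change. Alternatives covered scaling, pseudocount, filter, variance trend, library weights, replicate block and each library left out. Members and lists were chosen with earlier results of these data known, and so was the split by paralogs 4 and 5.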

Additional observations from a re-analysis of the deposited data

How the results depend on the processing

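Counts of HOX calls depended on scaling and on single libraries. Median-of-ratios scaling gave 6 calls in uninjured miR-200a inhibitor against uninjured cords and 3 in 4 dpi miR-200a inhibitor against uninjured cords. Without both libraries numbered 1 these counts were 11 and 7, with both changes together (chosen after seeing the data) 3 and 2, plus 1 in 4 dpi miR-200a inhibitor against uninjured miR-200a inhibitor, and with only the compared groups in the fit 9 and 9. That last fit also gave 4 calls against 4 dpi control inhibitor and 1 against uninjured miR-200a inhibitor. For 4 dpi miR-200a inhibitor against 4 dpi control inhibitor, a minimum mean of 5 TPM gave 1 call and an adjusted p under 0.1 gave 4. Library weights, estimated gene by gene because the default estimate did not converge, gave 23 there, 12 against uninjured miR-200a inhibitor and 6 for the interaction. Shares of all genes called are given above for scaling alone and for library weights, but not for the other settings. Counts under those other settings are therefore not shown to be particular to HOX genes.

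Leaving out 1 library gave 8 to 23 calls in uninjured miR-200a inhibitor and 3 to 20 in 4 dpi miR-200a inhibitor against uninjured cords, 0 to 5 in 4 dpi miR-200a inhibitor against 4 dpi control inhibitor, and 0 to 5 against uninjured miR-200a inhibitor. In 4 dpi control inhibitor against uninjured cords and in the interaction every such fit gave 0. Shares of all genes called in the fits that leave out 1 library are not given here.

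Replicate numbers were not shown to pair the libraries: 11 same-numbered pairs had correlations of -0.31 to 0.51, and 3 exceeded 0.1. The highest, 0.51, was between both libraries numbered 1. Correlations were taken on deviations from the mean of 3 libraries, which are tied to each other within a group. They therefore cannot decide whether same-numbered libraries shared a session. With the replicate number as a block, 14 members were called in uninjured miR-200a inhibitor and 9 in 4 dpi miR-200a inhibitor against uninjured cords. This block gave 2 in 4 dpi miR-200a inhibitor against uninjured miR-200a inhibitor and 1 in 4 dpi control inhibitor against uninjured cords. It gave 0 in 4 dpi miR-200a inhibitor against 4 dpi control inhibitor and in the interaction. The share of all genes called with this block is not given here.

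The share of paralogs 9 to 13 in 4 dpi miR-200a inhibitor minus 4 dpi control inhibitor was -8.75 points, -3.23 with paralogs 10 to 13 and -4.22 with members weighted equally (on log2(TPM + 1)). In uninjured miR-200a inhibitor minus uninjured cords it was -1.68, 1.20 and 2.99, and in 4 dpi miR-200a inhibitor minus uninjured cords -4.61, 2.96 and -1.62. For 4 dpi minus uninjured miR-200a inhibitor, -2.93 became 1.76 with paralogs 10 to 13. Scaling changed the log2 ratio of summed HOX TPM to -0.13 in 4 dpi miR-200a inhibitor against 4 dpi control inhibitor, -0.21 in uninjured miR-200a inhibitor against uninjured cords, -0.36 in 4 dpi against uninjured miR-200a inhibitor and -0.57 in 4 dpi miR-200a inhibitor against uninjured cords.

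Single genes changed sign in uninjured miR-200a inhibitor against uninjured cords: HOXD8 was 0.84 after scaling, -0.43 to 0.32 with 1 library left out (0.32 without uninjured replicate 1), 0.32 without both libraries numbered 1 and 1.07 with scaling and without both. Under that last setting HOXC11 was 0.11, HOXB8 0.046, HOXC13 0.048, HOXD10 0.10 and HOXB9 0.17, and HOXC8 was 0.032 in 4 dpi miR-200a inhibitor against uninjured cords. The cause of these changes was not tested. Depth is unknown, so a HOX gene listed at 0 is not shown to be absent.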

Other observations

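A row for the HOXA10-HOXA9 readthrough transcript, which the rule for members leaves out, had 7.46, 7.39 and 7.13 TPM in 4 dpi miR-200a inhibitor, 8.09, 8.12 and 11.6 in uninjured miR-200a inhibitor, 19.5, 8.13 and 13.2 in 4 dpi control inhibitor and 46.5, 20.1 and 15.9 in uninjured cords. It shares sequence with HOXA9 and HOXA10, so the levels of the 3 rows are uncertain. CDX2, a caudal regulator of HOX genes, was listed at 0 in every library except 4 dpi control inhibitor replicate 1 (6.55 TPM), and OTX2, a forebrain and midbrain factor, likewise had 6.85 TPM in that library and 0 in the others.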
